A study of Ovis aries with 8 samples.

Results

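Genes of the unfolded protein response and the integrated stress response were compared between cultured pulmonary artery endothelial cells of growth-restricted and control fetal sheep. A set of 44 genes was listed by name, and 37 of them were rows of the deposited table of 15380 rows under their own symbol. XBP1, the only other listed gene found, was present under its NCBI gene number and is described beside the 37 but not counted with them. ATF5, CEBPB, SLC7A5, PDIA4, SDF2L1 and DERL3 matched no row and were not analysed here.

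The cells were cultured from near-term fetuses, 4 cultures labelled IUGR (intrauterine growth restriction) and hyperthermic, and 4 cultures labelled control and normothermic. In this sheep model, pregnant ewes are kept at a raised temperature, which restricts placental and fetal growth. Each culture came from an animal with its own identifier and was measured on 1 array. IUGR cultures were at passage 3 or 4 and control cultures at passage 5 or 6, so growth restriction, hyperthermia and passage cannot be told apart. DMEM supplemented with 10% serum was the medium of all 8 cultures. The sex and genotype of the animals are not given in the sources used here. Values are log2 intensities, every difference is IUGR minus control, and every SE is that of the difference.

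Proteins bound for the membrane or for secretion fold in the endoplasmic reticulum (ER). When unfolded protein builds up there, the sensors ATF6, IRE1 (gene ERN1) and PERK (gene EIF2AK3) raise chaperone production, raise the disposal of misfolded protein and slow translation. PERK acts through eIF2, the factor that brings the initiator tRNA to the ribosome. GCN2 (gene EIF2AK4), which senses a shortage of amino acids, acts on the same factor, and the shared branch is called the integrated stress response. Its leading transcription factor, ATF4, is controlled largely by translation, IRE1 acts by splicing XBP1 mRNA, and ATF6 is released by cleavage, so transcript levels of these regulators do not report their activity.

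The cell type label was checked against markers. Of 11 measured endothelial markers, the summed intensity was 205 to 5704 in IUGR cultures and 5205 to 12236 in control cultures. It was 265 and 205 in IUGR replicates 2 and 4, and on each of these arrays 4 of the 11 lay at or below 3.44, the 95th percentile of the values of olfactory receptor genes, used here as a stand-in for background. The 10 fibroblast markers summed to 11673 to 21981 in IUGR cultures and to 696 to 1704 in control replicates 1 to 3, but to 14829 in control replicate 4. The 8 mesothelial and epithelial markers summed to 5517 and 9080 in IUGR replicates 2 and 4 and to at most 148 elsewhere. IUGR replicates 2 and 4 and control replicate 4 therefore stand apart from the other cultures of their labels, and values without them are given where leaving them out changed a call or moved a difference widely. Fewer cells of a type and less RNA per cell cannot be told apart in such samples.

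No stress response gene passed the limma test after adjustment over all 15380 rows. At an unadjusted p under 0.05, CREB3L1 and SEC24D were higher in IUGR cultures and CREB3L2 and PDIA5 were lower. The adjusted test called 0 of the 37 genes, against 0% of all rows. The unadjusted criterion took 5.41% of the genes as higher, against 7.8% of all rows, and 5.41% as lower, against 7.48% of all rows. For 0 of the 37 genes did all IUGR values lie above all control values, as they did for 4.37% of rows, and for 1, CREB3L2, all lay below, as for 3.99% of rows. These shares are at or below those of the whole table. The genes higher by the unadjusted criterion numbered 0 without IUGR replicate 1 (7.73% of all rows) or without control replicate 3 (6.05% of all rows), and 5 without control replicate 4 (8.58% of all rows).

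The group means were higher in IUGR cultures for 28 of the 37 genes, while 50.8% of all rows had a higher mean. The median difference over the 37 genes was 0.13, against 0.00 over all rows and 0.01 over the rows above the median level. It was 0.05 without IUGR replicate 1 and turned to -0.52 with passage as a covariate, under which 12 of 37 means were higher. Within the groups only control replicate 1 (passage 5, the others 6) and IUGR replicate 2 (passage 4, the others 3) differ in passage. The passage term of that fit therefore rests on these cultures. The spread between cultures was 0.38 in IUGR cultures and 0.31 in control cultures, as the median SD over the 37 genes. All of the 37 were above the background level of 3.44 on every array, except VLDLR on 1 array.

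**Figure D1:**
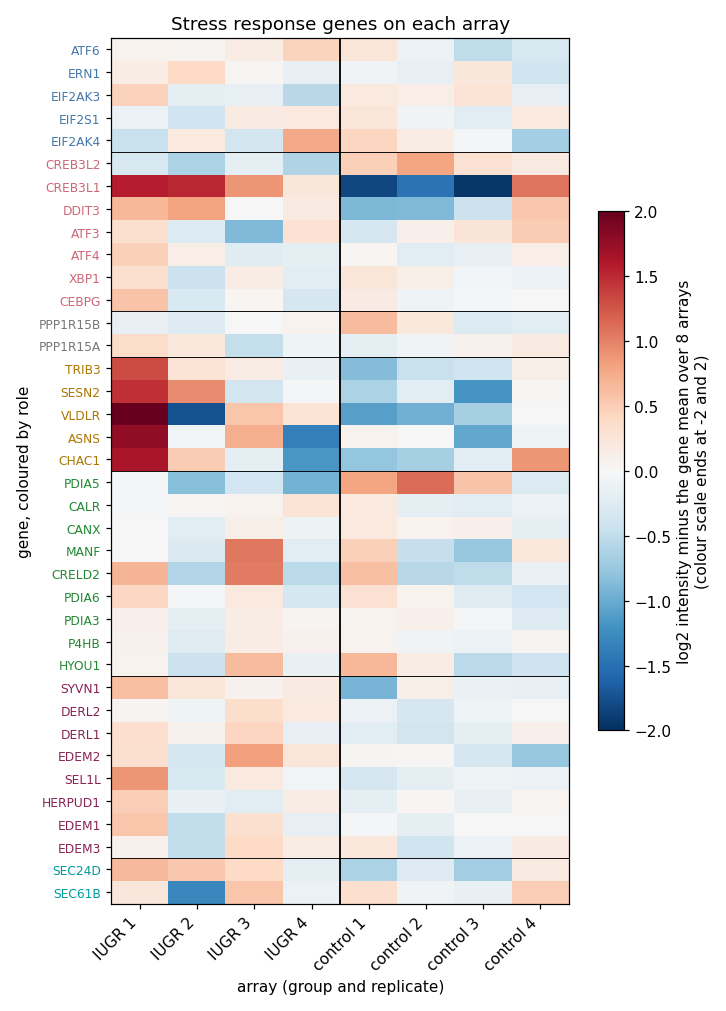
Heat map of the 38 measured genes (rows, grouped by role) on the 8 arrays (columns, 4 IUGR then 4 control), as log2 intensity minus the gene's mean over the arrays. The integrated stress response targets are highest in IUGR replicate 1, and CREB3L1 is low in control replicates 1 to 3 only.

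Among the sensors and eIF2 itself, no gene had an unadjusted p under 0.05 with all arrays in (7.8% of all rows were higher and 7.48% lower). ATF6, the ER membrane factor released by cleavage, had log2 intensities of 8.54, 8.53, 8.62 and 8.93 in IUGR replicates 1 to 4, against 8.72, 8.35, 7.97 and 8.15 in control replicates 1 to 4. Control replicate 1 exceeded 3 of the IUGR values, and the other controls lay below all IUGR values. The difference was 0.36 ± 0.18 (SE), with an adjusted p of 0.404 in the limma test. Without control replicate 1 it was 0.50, with an unadjusted p of 0.0121.

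ERN1, the gene of the kinase and RNase IRE1, was among the dimmer genes of the set. Its values were 5.30, 5.54, 5.17 and 4.99 in IUGR cultures, against 5.08, 4.98, 5.37 and 4.75 in control cultures, a difference of 0.21 ± 0.17 (SE). EIF2AK3, the gene of the eIF2 kinase PERK, had 8.18, 7.52, 7.56 and 7.17 in IUGR cultures, against 7.92, 7.86, 8.00 and 7.56 in control cultures. IUGR replicate 1 held the highest value and the other IUGR cultures lay at or below every control. Its difference was -0.23 ± 0.22 (SE), against -0.42 without IUGR replicate 1 (unadjusted p of 0.0295) and 0.03 without IUGR replicates 2 and 4. EIF2AK4, the gene of the amino acid sensor kinase GCN2, differed by 0.06 ± 0.35 (SE). Its direction turned without IUGR replicates 2 and 4, to -0.38, and without control replicate 4 as well it was -0.59, with an unadjusted p of 0.0248. EIF2S1, which encodes the eIF2 alpha subunit that both kinases phosphorylate, differed by -0.07 ± 0.17 (SE). The 95% interval for EIF2S1 ran from -0.48 to 0.34.

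Among the transcription factors, the paired ER membrane factors CREB3L2 and CREB3L1 differed in opposite directions, and the factors at the head of the classical branches, ATF4 and XBP1, differed by less than the spread between cultures. CREB3L2, known from mouse cartilage to drive secretory pathway genes, had values of 8.42, 8.09, 8.53 and 8.13 in IUGR replicates 1 to 4, against 9.21, 9.51, 9.04 and 8.91 in control replicates 1 to 4. Every IUGR culture lay below every control culture. The difference was -0.87 ± 0.16 (SE), an IUGR over control ratio of 0.545, with an unadjusted p of 0.00110 and an adjusted p of 0.104 in the limma test. Its unadjusted p stayed under 0.05 without any one of the 8 arrays. It was -0.69 without IUGR replicates 2 and 4 and -0.78 when control replicate 4 was left out too. In a fit that adjusts for the endothelial marker score it was -0.50, with an unadjusted p of 0.0337. The score itself was -0.49, -3.30, 0.81 and -3.45 in IUGR replicates 1 to 4 and 0.72 to 2.06 in control cultures. Here and below, that fit therefore cannot fully tell group and score apart.

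CREB3L1, also called OASIS and known in mouse bone for driving collagen gene transcription, had values of 8.71, 8.63, 8.02 and 7.36 in IUGR cultures, against 5.31, 5.65, 5.19 and 8.20 in control cultures. Control replicates 1 to 3 lay far below the IUGR cultures, and control replicate 4 lay within their range. The difference was 2.09 ± 0.73 (SE), an IUGR over control ratio of 4.27, with an adjusted p of 0.254 in the limma test. Without control replicate 4 the difference was 2.80 and passed, at an adjusted limma p of 0.0287, in a setting that called 340 rows, or 2.21%. Without IUGR replicates 2 and 4 as well, it was 2.98, at an adjusted p of 0.0434 with 1.98% of rows called. Without IUGR replicates 2 and 4 alone it was 2.28, with an unadjusted p of 0.0735. In a fit that adjusts for the endothelial marker score it was 1.76, with an unadjusted limma p of 0.201. The unadjusted p was also above 0.05 when IUGR replicate 1 or 2 or control replicate 1, 2 or 3 was left out, between 0.0620 and 0.0657. The fibroblast marker sums given above split the arrays in the same way, control replicate 4 (14829) being high and control replicates 1 to 3 low. Their part in the CREB3L1 difference was not tested.

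DDIT3 encodes CHOP, the factor linked to cell death under lasting ER stress. It had values of 7.37, 7.51, 6.71 and 6.88 in IUGR cultures, against 5.80, 5.81, 6.27 and 7.23 in control cultures. Control replicate 4 again lay among the IUGR cultures, while the other controls lay below all of them. The difference of 0.84 ± 0.36 (SE) did not pass (adjusted p = 0.338 in the limma test), and without control replicate 4 it was 1.16 (adjusted p = 0.0809 in the limma test).

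ATF4 was among the brightest genes of the table. Its values were 10.74, 10.39, 10.03 and 10.09 in IUGR cultures, against 10.30, 10.06, 10.11 and 10.40 in control cultures. IUGR replicate 1 was the highest and IUGR replicate 3 the lowest of all 8 arrays, so the groups overlapped fully. The difference was 0.09 ± 0.17 (SE), with a 95% interval from -0.32 to 0.51. XBP1, whose spliced form is the factor downstream of IRE1, had 9.17, 8.42, 9.01 and 8.65 in IUGR cultures, against 9.09, 8.96, 8.80 and 8.74 in control cultures. Its difference was -0.09 ± 0.18 (SE) and its 95% interval ran from -0.51 to 0.34. The difference was 0.19 without IUGR replicates 2 and 4 and 0.36 with the endothelial score as a covariate. With passage as a covariate it was -1.06, with an unadjusted limma p of 0.0421. The table has 1 row for XBP1, which gives no value for splicing.

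ATF3, a stress-induced repressor and activator of the same family, had 6.79, 6.19, 5.58 and 6.75 in IUGR cultures, against 6.12, 6.56, 6.72 and 6.97 in control cultures. Its lowest value was in IUGR replicate 3 and its highest in control replicate 4, and the difference was -0.26 ± 0.32 (SE). CEBPG, a partner of ATF4 on DNA, differed by -0.02 ± 0.21 (SE), with IUGR replicate 1 alone, at 7.43, above every control.

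**Figure D2:**
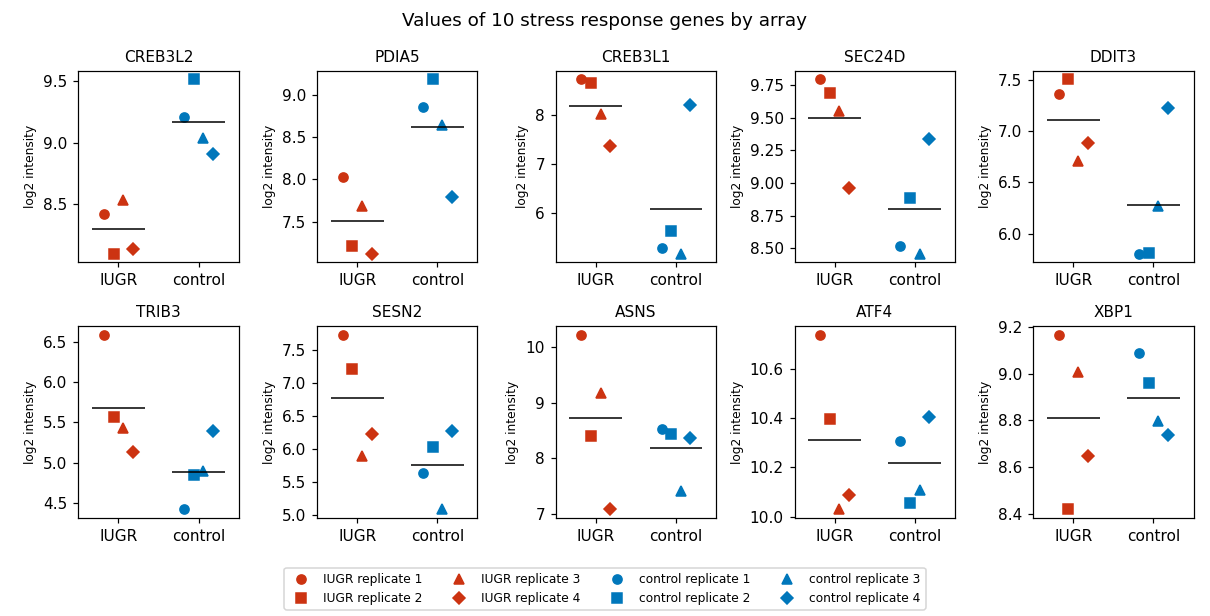
Log2 intensity (vertical axis, scaled for each gene) of 10 stress response genes in the 4 IUGR and 4 control arrays; symbols mark the replicate and bars the group mean. All IUGR values of CREB3L2 lie below all control values, and control replicate 4 lies within or near the IUGR range for CREB3L1, SEC24D and DDIT3.

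The targets of the integrated stress response had the widest spread of all the groups. All 5 measured, TRIB3, SESN2, VLDLR, ASNS and CHAC1, had higher means in IUGR cultures, with a median difference of 0.79. But 0 of 5 had an unadjusted p under 0.05, against 7.8% of all rows higher and 7.48% lower. In each of the 5 the highest of the 8 values was that of IUGR replicate 1, against 12.0% of all rows. In 4 of the 5 control replicate 4 was the highest control, against 26.3% of all rows. The median SD of the 5 was 1.18 in IUGR cultures and 0.52 in control cultures, against 0.31 and 0.28 over all rows.

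TRIB3 encodes a pseudokinase that feeds back on ATF4. It had values of 6.58, 5.56, 5.43 and 5.14 in IUGR replicates 1 to 4, against 4.42, 4.85, 4.89 and 5.40 in control replicates 1 to 4. Only control replicate 4 exceeded an IUGR value, that of IUGR replicate 4. The difference was 0.79 ± 0.35 (SE), with an adjusted limma p of 0.349, against 0.49 without IUGR replicate 1 and 1.12 without IUGR replicates 2 and 4 (unadjusted p of 0.0484). SESN2, a leucine sensor that restrains the growth kinase complex mTORC1, had 7.73, 7.21, 5.89 and 6.23 in IUGR cultures, against 5.64, 6.03, 5.09 and 6.28 in control cultures. IUGR replicates 1 and 2 lay above all controls and IUGR replicates 3 and 4 within their range, for a difference of 1.01 ± 0.47 (SE) and an adjusted limma p of 0.373. It was 0.69 without IUGR replicate 1.

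ASNS, asparagine synthetase, a textbook ATF4 target, had values of 10.22, 8.40, 9.18 and 7.08 in IUGR cultures, against 8.52, 8.45, 7.41 and 8.36 in control cultures. IUGR replicate 1 was the highest and IUGR replicate 4 the lowest array, and control replicate 3 stood below the other controls. The difference of 0.54 ± 0.67 (SE) was 0.03 without IUGR replicate 1 and 1.52 without IUGR replicates 2 and 4, with an unadjusted p of 0.0235. CHAC1, an enzyme that breaks down glutathione, had 8.17, 7.04, 6.35 and 5.37 in IUGR cultures, against 5.77, 5.88, 6.31 and 7.43 in control cultures. Here too IUGR replicates 1 and 4 marked the extremes of all 8 arrays, and the difference, 0.39 ± 0.66 (SE), turned to -0.09 without IUGR replicate 1 and was 0.91 without IUGR replicates 2 and 4.

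VLDLR, a lipoprotein receptor induced through PERK and ATF4, is given by array because its range was the widest of the set, a choice made after its values were seen. It had 8.31, 2.94, 5.23 and 4.96 in IUGR cultures, against 3.59, 3.72, 4.01 and 4.68 in control cultures. IUGR replicate 2, the lowest, lay below the background level of 3.44 and the other IUGR cultures lay above every control. The difference of 1.36 ± 1.06 (SE) was 0.38 without IUGR replicate 1 and 2.77 without IUGR replicates 2 and 4 (adjusted p = 0.369 in the limma test).

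Averaged over the 5 targets, the log2 value relative to each gene's mean was 1.96, -0.01, 0.17 and -0.49 in IUGR replicates 1 to 4 and -0.66, -0.46, -0.70 and 0.18 in control replicates 1 to 4. IUGR replicate 1 and control replicate 4, each the highest of its group, were also the lowest of their groups in the mean of 10 cell cycle genes (MKI67, TOP2A and others), at -1.58 and -1.15. The other 3 IUGR cultures had cell cycle means of 0.16 to 0.75 and the other 3 controls -0.07 to 1.26. IUGR replicate 1 and control replicate 4 were also the highest of their groups in summed fibroblast markers, at 21981 and 14829, and in summed smooth muscle markers, at 8233 and 14330. The part of these markers and of proliferation in the target values was not tested.

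The regulatory subunits that direct a phosphatase to eIF2 had small mean differences. PPP1R15A, the inducible subunit GADD34, differed by 0.00 ± 0.19 (SE), with a 95% interval from -0.45 to 0.46. As for the targets, its highest value, 5.14, was in IUGR replicate 1 and its highest control value, 4.95, in control replicate 4. PPP1R15B, the constitutive subunit CReP, differed by -0.18 ± 0.22 (SE), with control replicate 1 the highest array at 8.81.

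**Figure D3:**
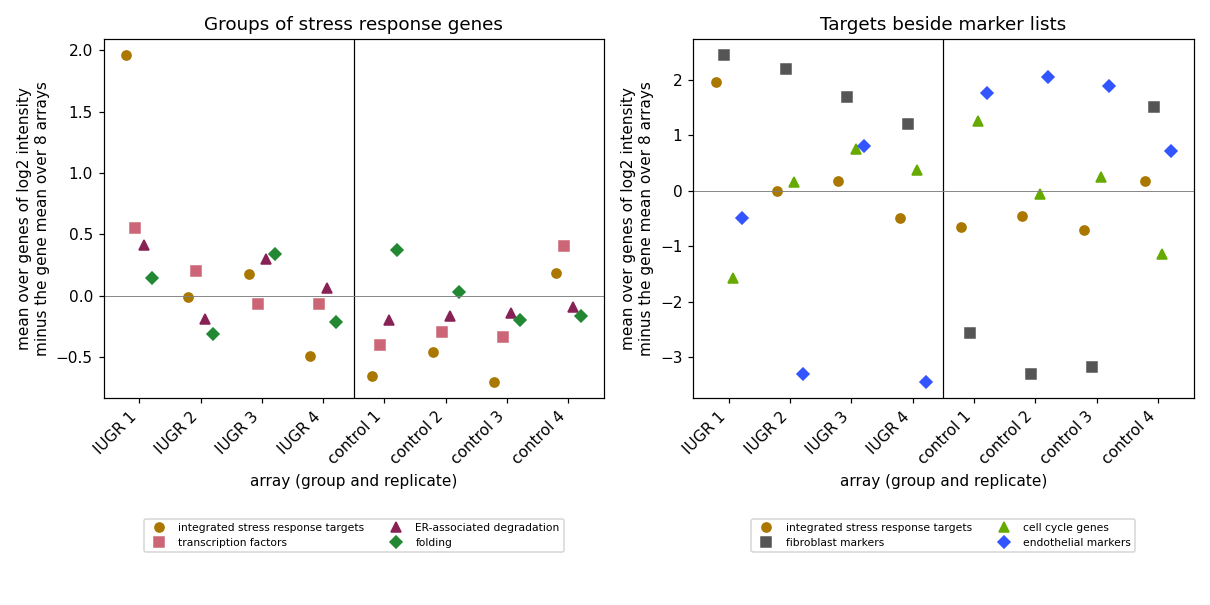
Mean over genes of log2 intensity minus each gene's mean, by array (4 IUGR arrays left of the line, 4 control arrays right of it), for groups of stress response genes (left panel) and for the 5 integrated stress response targets beside fibroblast, cell cycle and endothelial lists (right panel). The targets reach 1.96 in IUGR replicate 1, where cell cycle genes are at -1.58; group means of the factors exclude XBP1.

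The ER folding genes of the set were abundant. PDIA5 was the only one of them with an unadjusted limma p under 0.05 (11.1%, against 7.48% of all rows lower). Of 9 measured folding genes, 7 had higher and 2 lower means in IUGR cultures, with a median difference of 0.06. PDIA5, a protein disulfide isomerase that acts on the disulfide bonds of ATF6, had values of 8.03, 7.21, 7.69 and 7.12 in IUGR cultures, against 8.86, 9.18, 8.64 and 7.80 in control cultures. Control replicate 4 lay below IUGR replicate 1, and the other controls lay above all IUGR cultures. The difference was -1.10 ± 0.34 (SE), an IUGR over control ratio of 0.466 with an adjusted limma p of 0.213. It was -1.38 without control replicate 4 (adjusted p = 0.0700 in the limma test). Without IUGR replicates 2 and 4 it was -0.76, with an unadjusted p of 0.133. In a fit that adjusts for the endothelial marker score it was -0.38, with an unadjusted p of 0.408.

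CALR, calreticulin, the soluble lectin chaperone of glycoproteins, had 11.36, 11.42, 11.47 and 11.67 in IUGR cultures, against 11.59, 11.21, 11.16 and 11.28 in control cultures. Control replicate 1 exceeded 3 of the 4 IUGR values, and the difference was 0.17 ± 0.11 (SE). Without control replicate 1 CALR differed by 0.26, with an unadjusted limma p of 0.0232. Its membrane-bound counterpart CANX, calnexin, differed by -0.10 ± 0.10 (SE). PDIA3, the disulfide isomerase that works with both, differed by 0.06 ± 0.11 (SE) (95% interval -0.20 to 0.32). P4HB, the founding disulfide isomerase and a subunit of the collagen prolyl hydroxylase, differed by 0.03 ± 0.10 (SE) (95% interval -0.20 to 0.26). The farthest bound of these 4 intervals from 0 was 0.44, that of CALR, in the fit without covariates. With passage as a covariate the differences were -0.40 for CALR, -0.60 for CANX, -0.47 for PDIA3 and -0.54 for P4HB. The passage term of that fit rests on control replicate 1 and IUGR replicate 2.

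PDIA6, a disulfide isomerase that attenuates the ER stress sensors, differed by 0.12 ± 0.21 (SE), and HYOU1, a large HSP70-type chaperone that recharges BiP, by 0.06 ± 0.34 (SE). MANF and CRELD2, secreted ER stress-responsive proteins, differed by 0.26 ± 0.40 (SE) and 0.30 ± 0.47 (SE). Without IUGR replicates 2 and 4 the differences were 0.65 for MANF and 1.01 for CRELD2 (unadjusted p of 0.0477). Both peaked in IUGR replicate 3, at 8.91 and 8.00, with control replicate 1 the highest control, at 8.34 and 7.56. Over the 9 folding genes, IUGR replicate 3 was the highest IUGR culture for 6 (66.7%, against 23.3% of all rows). Control replicate 1 was the highest control for 7 (77.8%, against 29.0% of all rows). The same arrays were the highest of their groups for all 10 cell cycle genes, and the part of proliferation in the folding values was not tested.

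All 8 measured genes of ER-associated degradation, the route that returns misfolded proteins to the cytosol for destruction, had higher means in IUGR cultures. The median difference was 0.30, and 0 of 8 had an unadjusted p under 0.05, against 7.8% of all rows higher and 7.48% lower. SYVN1, the ubiquitin ligase HRD1 at the centre of this route, had values of 8.06, 7.71, 7.54 and 7.64 in IUGR cultures, against 6.53, 7.58, 7.32 and 7.29 in control cultures. Control replicate 1 was far the lowest and control replicate 2 lay above IUGR replicate 3, so the groups overlapped by 1 pair of cultures. The difference was 0.56 ± 0.24 (SE) (adjusted p = 0.333 in the limma test). Without control replicate 1 it was 0.34, with an unadjusted limma p of 0.0622. SEL1L, the adaptor that holds HRD1 in its complex, had 9.53, 8.35, 8.85 and 8.60 in IUGR cultures, against 8.31, 8.46, 8.57 and 8.54 in control cultures. Its difference of 0.36 ± 0.25 (SE) was 0.13 without IUGR replicate 1 and 0.72 without IUGR replicates 2 and 4, with an unadjusted p of 0.0205.

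DERL1 and DERL2 encode derlins, which help misfolded proteins cross the ER membrane. DERL1 had 10.11, 9.88, 10.22 and 9.61 in IUGR cultures, against 9.56, 9.42, 9.58 and 9.88 in control cultures, a difference of 0.34 ± 0.16 (SE). DERL2 had 8.82, 8.68, 9.12 and 8.96 in IUGR cultures, against 8.65, 8.43, 8.68 and 8.77 in control cultures, a difference of 0.26 ± 0.12 (SE). In both genes, control replicate 4 was the highest control and the only one above any IUGR value. Without IUGR replicates 2 and 4 and control replicate 4, DERL1 differed by 0.65 (adjusted p = 0.0602 in the limma test) and DERL2 by 0.39 (adjusted p = 0.287 in the limma test).

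EDEM proteins trim mannose from misfolded glycoproteins and so mark them for removal. EDEM2 had 8.23, 7.56, 8.73 and 8.15 in IUGR cultures, against 7.96, 7.93, 7.57 and 7.16 in control cultures, a difference of 0.51 ± 0.29 (SE), with its lowest value in control replicate 4 and its highest in IUGR replicate 3. EDEM1 and EDEM3 differed by 0.11 ± 0.23 (SE) and 0.07 ± 0.22 (SE), and in both of them IUGR replicate 2 was the lowest of the 8 arrays. Without IUGR replicates 2 and 4, EDEM1 differed by 0.49, with an unadjusted p of 0.00391 and an adjusted limma p of 0.233. EDEM2 and EDEM3 then differed by 0.82 and 0.27. HERPUD1, a membrane protein of the HRD1 complex and a sensitive transcriptional target of ER stress, had 7.58, 6.95, 6.88 and 7.24 in IUGR cultures, against 6.90, 7.13, 6.96 and 7.14 in control cultures. Only IUGR replicates 1 and 4 exceeded all controls, and the difference was 0.13 ± 0.16 (SE), with a 95% interval from -0.26 to 0.52.

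Of the 2 transport genes, SEC24D had the higher mean in IUGR cultures and SEC61B the lower. SEC24D, a cargo adaptor of the COPII coat that carries procollagen and other cargo out of the ER, had 9.79, 9.69, 9.56 and 8.96 in IUGR cultures, against 8.52, 8.88, 8.46 and 9.34 in control cultures. Control replicate 4 was above IUGR replicate 4, and the other controls were below every IUGR culture. The difference was 0.70 ± 0.26 (SE), an IUGR over control ratio of 1.62 with an adjusted limma p of 0.275. It was 0.88 without control replicate 4 (adjusted p = 0.130 in the limma test). In a fit that adjusts for the endothelial marker score it was 0.82, with an unadjusted limma p of 0.107. The unadjusted p was above 0.05 when IUGR replicate 1, 2 or 3 or control replicate 1, 2 or 3 was left out, between 0.0545 and 0.0805. As for CREB3L1, control replicate 4 was the highest control in both SEC24D and the fibroblast marker sum, and the part of that marker difference was not tested. SEC61B, a subunit of the channel through which new proteins enter the ER, differed by -0.31 ± 0.41 (SE), with IUGR replicate 2 the lowest array at 6.99, and by 0.24 without IUGR replicates 2 and 4.

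**Figure D4:**
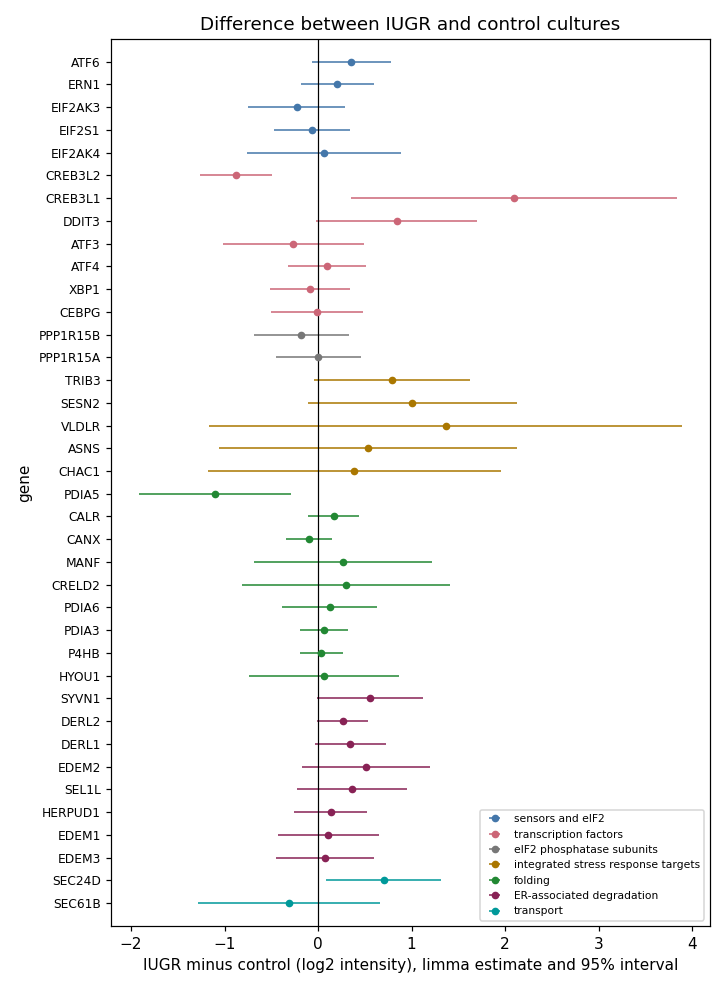
IUGR minus control difference in log2 intensity (horizontal axis) for each of the 38 measured genes, with the 95% interval from limma; colours mark the role. The intervals of CREB3L2, PDIA5, CREB3L1 and SEC24D leave out 0 before adjustment, and those of the other genes include it.

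The arrays contributed unequally to the set. IUGR replicate 1 held the highest of the 8 values for 16 of the 37 genes (43.2%), against 12.0% of all rows, and the lowest for 0 of them. IUGR replicate 3 held the highest for 9 (24.3%, against 9.06% of all rows). Control replicate 3 held the lowest for 8 (21.6%, against 10.7% of all rows). IUGR replicates 2 and 4, the cultures with little endothelial signal, held the highest value for 2 and 3 genes. That is 5.41% and 8.11%, against 11.4% and 16.3% of all rows. They held the lowest for 9 and 5, or 24.3% and 13.5%, against 14.4% and 11.6% of all rows. When these 2 cultures were left out, 11 of the 37 genes (29.7%) were above every control in the remaining 2 IUGR cultures, against 9.77% of all rows, and 0 of 37 passed the adjusted test. At an unadjusted p under 0.05, 9 genes (24.3%) were then higher, against 6.77% of all rows, and 1, CREB3L2, was lower (2.70%, against 5.23%). The 9 were SEC24D, TRIB3, ASNS, VLDLR, CRELD2, SEL1L, DERL1, EDEM1 and EDEM2. With control replicate 4 left out too, 10 were higher (27.0%, against 9.9% of all rows), CREB3L1 and DDIT3 being added and CRELD2 lost. The lower genes were then CREB3L2, PDIA5 and EIF2AK4 (8.11%, against 8.57%). In that fit 14 genes lay above every control (37.8%, against 16.4% of all rows). The IUGR cultures kept, replicates 1 and 3, are those that held the highest value for 16 and 9 genes. Their fibroblast marker sums were 21981 and 13273, against 696 to 1704 in control replicates 1 to 3. The part of these markers in the counts was not tested.

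Related genes outside the set also had mostly higher means. Of 106 such genes measured, 80 had higher means in IUGR cultures, the median difference was 0.19, and 0 passed the limma test after adjustment. At an unadjusted p under 0.05, 15 were higher and 3 lower. That is 14.2% and 2.83%, against the 7.8% and 7.48% of all rows. The related lists were chosen with earlier results of these data known, so their shares only describe the lists.

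The largest share came from 33 further genes of the integrated stress response and amino acid supply. By that criterion 8 were higher (24.2%, against 7.8% of all rows) and 0 lower (against 7.48%). As this list too was chosen with earlier results known, the share is a description and not a test. GPT2, a mitochondrial alanine aminotransferase, had values of 7.96, 7.13, 6.92 and 6.70 in IUGR cultures, against 5.67, 5.47, 5.41 and 6.11 in control cultures, a difference of 1.51 ± 0.30 (SE) (adjusted p = 0.115 in the limma test). SLC3A2, the heavy chain of several amino acid transporters, had 9.66, 9.81, 8.51 and 9.49 in IUGR cultures, against 7.98, 8.03, 7.50 and 8.47 in control cultures, a difference of 1.37 ± 0.33 (SE). In both, every IUGR culture lay above every control and control replicate 4 was the highest control. PHGDH, the first enzyme of serine synthesis, differed by 1.35 with no overlap. IUGR replicate 1 was the highest of the 8 arrays for 20 of the 33 genes (60.6%, against 12.0% of all rows), as it was for the 5 targets above. Counts for these 33 genes with arrays left out are not given here.

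Of 22 further ER chaperones and folding enzymes, 2 were higher and 1 lower at an unadjusted p under 0.05. That is 9.09% and 4.55%, against 7.8% and 7.48% of all rows. HSPA5, the chaperone BiP and the standard readout of ER stress, had values of 10.77, 10.56, 11.05 and 10.92 in IUGR cultures, against 11.04, 10.65, 10.38 and 10.34 in control cultures, so control replicates 1 and 2 were within the IUGR range. Its difference was 0.22 ± 0.18 (SE), with a 95% interval from -0.21 to 0.66. The BiP cochaperones DNAJB9 and DNAJC3 differed by 0.27 ± 0.35 (SE) and 0.23 ± 0.31 (SE). The ER form of HSP90, HSP90B1, differed by 0.34 and ERP29, an ER lumen folding factor, by 0.35. TXNDC5, also named endothelial protein disulfide isomerase, differed by -1.01.

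Of 17 genes of the translocon and ER export, 3 were higher and 1 lower at an unadjusted p under 0.05. That is 17.6% and 5.88%, against 7.8% and 7.48% of all rows. SEC61A2, a form of the channel's core subunit, differed by 0.88 ± 0.24 (SE) with no overlap, while SSR3 and SSR4, subunits of the same translocon-associated complex, differed in opposite directions, by 0.39 and -0.50. Of 15 further degradation genes, HM13, signal peptide peptidase, alone met the criterion (6.67%, against 7.8% of all rows higher). It differed by 0.56 ± 0.14 (SE) with every IUGR culture above every control, and UBE2G2 and AUP1 differed by 0.14 and 0.25. Of 19 further sensing and eIF2 genes, 1 was higher and 1 lower (5.26% each, against 7.8% and 7.48% of all rows). These were OMA1, the mitochondrial protease that starts a relay to eIF2 kinases, at 0.65, and EIF2B2, a subunit of the eIF2 exchange factor, at -0.67. MBTPS2, a protease that cleaves ATF6, differed by 0.37.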

How the data were processed

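The authors deposited 1 table of linear intensity values for 8 arrays, each row standing for 1 gene symbol or 1 NCBI gene number. Per the labels, RNA was isolated with Trizol and labelled with biotin as cRNA by an Affymetrix protocol. Background correction, probe summary, normalization and genome build are not given in the sources used here, and the linear scale was read from the values. The array medians, 37.7 to 41.1 intensity units, nearly coincide, so the arrays were not normalized again. Detection calls are not part of the table. Precision is limited by having 4 arrays a group.

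A floor at the 10th percentile of the whole table, 5.89 intensity units (log2 of 2.56), was set before log2 was taken. No value of the 37 genes lay below it. The comparison of IUGR with control used limma 3.58.1 (lmFit, eBayes; two-sided; R 4.3.3) without covariates on all 15380 rows, with Benjamini-Hochberg adjustment over all rows and a threshold of 0.05. The script was tested on simulated data. Gene names came from the table, and rows with a gene number were named through the NCBI RefSeq table of ARS-UI_Ramb_v3.0. Replicate numbers only name the cultures. The p-values set the group difference against the spread between cultures, as moderated by limma over all rows. That spread includes their differences in cell type markers and passage.

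The genes, the related lists and the alternatives were chosen with earlier results of these data known. Every measured gene of the set was named. Values by array were given for the 14 with the smallest unadjusted p, for 11 further or overlapping genes chosen by role (DDIT3, ATF3, ATF4, ATF6, XBP1, ERN1, EIF2AK3, HERPUD1, TRIB3, ASNS and CHAC1) and for VLDLR. From each related list the 3 genes with the smallest unadjusted p were named, with HSPA5, HSP90B1, DNAJB9 and DNAJC3. Marker lists for endothelial, fibroblast, smooth muscle, mesothelial and epithelial, leukocyte and cell cycle genes were set beside them. The 7 smooth muscle markers summed to 1308 to 8233 in IUGR and 1064 to 14330 in control cultures, highest in control replicate 4. The 6 leukocyte markers summed to 225 to 1199 in IUGR and 501 to 1458 in control cultures, with PTPRC below the background level on every array. Alternatives covered normalization, floor and pseudocount, filter, feature level, prior, weights, covariates, a random block on the leading title number, and left-out arrays. Promoter and protein sequences were not used here.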

Additional observations from a re-analysis of the deposited data

Results flagged for a closer look

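Within groups of 4 cultures, 3 of the 76 examined (38 genes in 2 groups) held a value whose gap to its nearest neighbour took up more of the group's range than Dixon's 95% limit allows. Chance alone gives about 1 in 20, or 5%. CREB3L1 in control cultures had control replicate 4 at 8.20 and the others at 5.19 to 5.65 (gap 0.846 of the range), and this culture was also the highest control in fibroblast marker sum. ASNS in control cultures had control replicate 3 at 7.41 and the others at 8.36 to 8.52 (0.855). P4HB in IUGR cultures had IUGR replicate 2 at 10.63 and the others at 10.94 to 11.01 (0.832).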

How the results depend on the processing

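Of the 37 genes, 0 passed after adjustment, except 1, CREB3L1, without control replicate 4, alone or with IUGR replicates 2 and 4, and 2, CREB3L2 and PDIA5, at an adjusted threshold of 0.25. The genes higher at an unadjusted p under 0.05 numbered 2. They were 6 with no floor (7.95% of all rows), with log2(value + 1) (7.98%) and with array weights (9.08%). They were 3 with log2(value + 32) (7.45%) and 4 among rows above the median (33 genes, 9.6% of those rows). With the endothelial score as a covariate they were 4 (4.2%): CRELD2, DERL1, EDEM1 and EDEM2, and neither CREB3L1 nor SEC24D. They were 0 with passage as a covariate (3.91%) or by the criterion of groups that do not overlap (4.37%). They were 9 (24.3%, against 6.77% of all rows) without IUGR replicates 2 and 4 and 10 (27.0%, against 9.9%) without these and control replicate 4. The lower genes numbered 2, against 7 with passage (4.57% of all rows): CREB3L2, P4HB, PPP1R15B, HYOU1, SEC61B, EIF2S1 and EDEM3. XBP1, not counted with the 37, also met this criterion with passage. The lower genes of the 37 numbered 1 with the endothelial score (2.98% of all rows), without IUGR replicates 2 and 4 (5.23%), or by no overlap (3.99%). Leaving out single arrays gave 0 to 1 adjusted calls, 0 to 5 higher genes, 2 to 3 lower genes (5.53% to 9.17% of all rows) and a median difference of 0.05 to 0.22. The higher genes were 5 without control replicate 4 (8.58% of all rows), 4 without IUGR replicate 4 (7.22%) and 1 without control replicate 2 (5.94%). They were 0 without IUGR replicate 1 (7.73%) or control replicate 3 (6.05%). The median difference was -0.52 with passage and 0.38 with the endothelial score. Quantile normalization and median centring left the counts at 2 higher and 2 lower, and the share of all rows lower at an unadjusted p under 0.05 became 9.09% and 9.21%. Of 38 genes, 10 kept their direction in every refit that held them (23 settings, or 22 for ERN1 and TRIB3, absent among rows above the median) and 18 turned with passage; the causes were not tested. Passage does not overlap between the groups, so that fit rests on its spread within them. That spread comes only from control replicate 1 and IUGR replicate 2. No paired analysis was made, because each culture came from its own animal and the labels pair no IUGR animal with a control animal.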
